A study of Homo sapiens with 4 samples.

Results

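The genes described here encode the nuclear subunits of the mitochondrial respiratory chain and of ATP synthase, together with a few genes that share their names. They were taken from the table of normalized log2 values as every symbol beginning with NDUFA, NDUFB, NDUFC, NDUFS, NDUFV, UQCR, COX4 to COX8 or ATP5, plus SDHA, SDHB, SDHC and SDHD, that was above 0 in at least 2 of the 4 libraries. Of 25066 genes in the table, 91 matched these names and 86 passed the filter. The cells were NUDUL1, a line from a human large B cell lymphoma of the germinal center type (GCB-DLBCL), derived from single-cell clones with doxycycline-inducible Cas9 and transduced with the thromboxane receptor Tbxa2r. In 2 libraries the cells carried a control sgRNA (control) and in 2 they carried an sgRNA against GNA13, which encodes the G protein subunit Gα13 (GNA13-deficient), with 1 sgRNA for each genotype. Cells of both genotypes, grown in 4% FBS, had received 10 nM U46619, a thromboxane receptor agonist, for 24 h, so there was no untreated group. Nothing in the sources says that the 2 libraries of a genotype came from separate clones, and the p values then measure the spread between these libraries.

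Complex I takes electrons from NADH and complex II takes them from succinate. Complex III passes them to cytochrome c and complex IV passes them on to oxygen, while complexes I, III and IV move protons out of the matrix and complex V, the ATP synthase, uses their return to make ATP. Apart from complex II, these complexes also hold subunits encoded by mitochondrial DNA, and germinal center B cells are known to rely on oxidative phosphorylation while they divide.

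Mapped reads ranged from 29209544 to 31537955 per library. All 8 B cell markers were above 3 reads in every library, with log2 values of 8.23 to 14.3, and MS4A1 and BCL6 fell. The 9 markers of other cell types ranged from 0 to 6.83, with the T cell markers CD3D, CD3E and CD2 at 0 in all 4 libraries. Of these markers EPCAM rose, LYZ and PECAM1 fell, and the log2 of their summed level was 8.02 to 8.03 in control and 7.15 to 7.25 in GNA13-deficient libraries, against 16.2 and 16.1 to 16.2 for the B cell markers. Their part in the results was not tested. GNA13 itself had log2 values of 12.46 and 12.45 in control and 13.10 and 13.11 in GNA13-deficient libraries, a rise of 0.65 (adjusted p = 0.00214, limma). Its mRNA was therefore not lower in the libraries labelled GNA13-deficient, and each direction given here rests on the labels. In lysates of whole cultures, fewer cells with a transcript and less of it per cell cannot be told apart.

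Most of the 86 genes lay slightly higher in GNA13-deficient libraries, and few differences passed the test. The median difference (GNA13-deficient minus control, on the log2 scale throughout) was 0.155, or 1.11-fold, against -0.02 over the 16945 genes tested, and 68 of the 86 were above 0. In limma with Benjamini-Hochberg adjustment over all genes tested and a threshold of 0.05, 18 rose (20.9%), 3 fell (3.49%) and 65 did not pass. Of all genes tested 13.1% rose and 16.6% fell, and of the 8473 genes at or above the median expression level 21.3% rose and 17.7% fell. All but 4 of the 86 were at or above that level, and of these 82 genes 22.0% rose and 3.66% fell. Centring each library on its median moved the median of all genes to 0.18 and that of the 86 genes to 0.36, and 46 of them then rose and 1 fell, while of all calls 69.1% were higher in place of 44.0%. The share that rose in the values as deposited was near that of other well-expressed genes, and the share that fell was smaller. Both GNA13-deficient libraries were above both control libraries for 47 genes and below both for 10, where the background over all genes tested was 31.3% and 34.0%. At or above the median level the counts were 46 and 9 of the 82 genes, against 3392 and 2881 of all 8473.

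**Figure D1:**
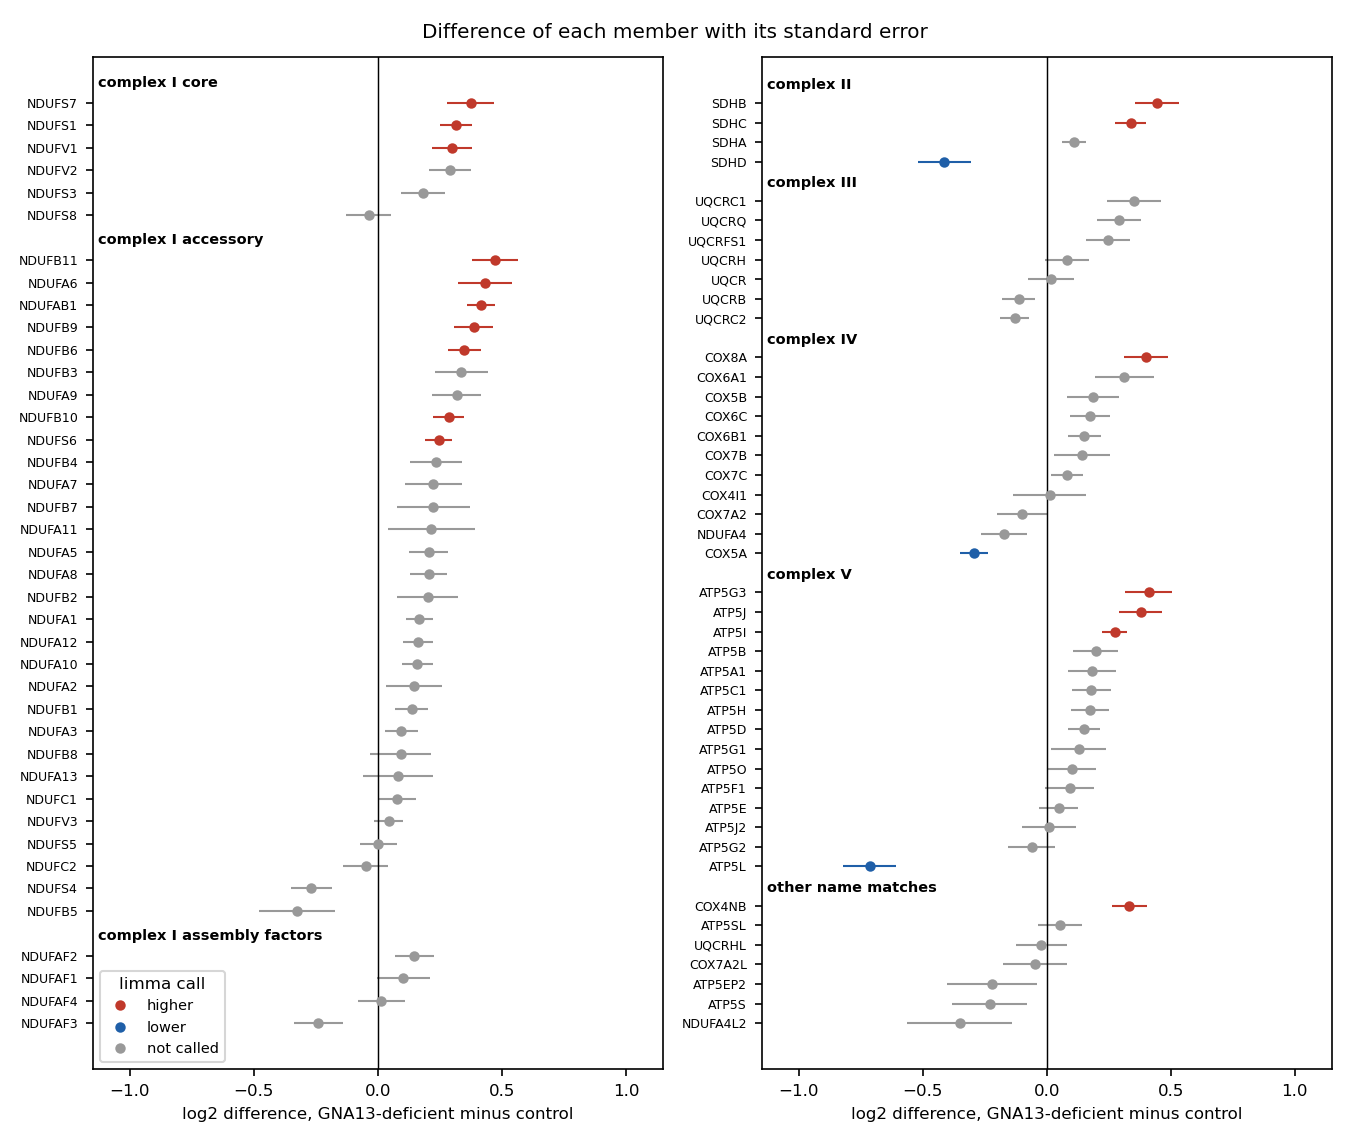
Log2 difference of 84 of the 86 genes (horizontal axis, GNA13-deficient minus control) by complex, with bars of 1 standard error from limma and colours for the call. COX6B2, at no more than 2 reads in any library, is among those left out. Most points lie right of 0, while SDHD, COX5A and ATP5L are the 3 that fell.

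The size of this shift was close to the spread between libraries. Each gene was set against its control mean, and the medians over the 86 genes were -0.07 and 0.07 in the control libraries and 0.09 and 0.22 in the GNA13-deficient libraries, with a pooled SD of 0.0935. The groups did not overlap, but replicate 1 of GNA13-deficient was only just above replicate 2 of control. In both genotypes the second library was the higher one for most of these genes, in 75 of 86 in control and 84 of 86 in GNA13-deficient. Over all genes tested this held for 7709 and 8131 of 16945. The 83 cytosolic ribosomal protein genes showed the same order of libraries (79 and 81 of 83) but lay lower in GNA13-deficient libraries, at -0.31 and -0.13 against -0.10 and 0.10 in control. The part of RNA quality or library preparation in this order was not tested. With any 1 of the 4 libraries left out, limma called 0 of all 16945 genes tested and so 0 of the 86, while 14 to 26 of the 86 and 5257 to 5600 of all genes had an unadjusted p under 0.05.

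**Figure D2:**
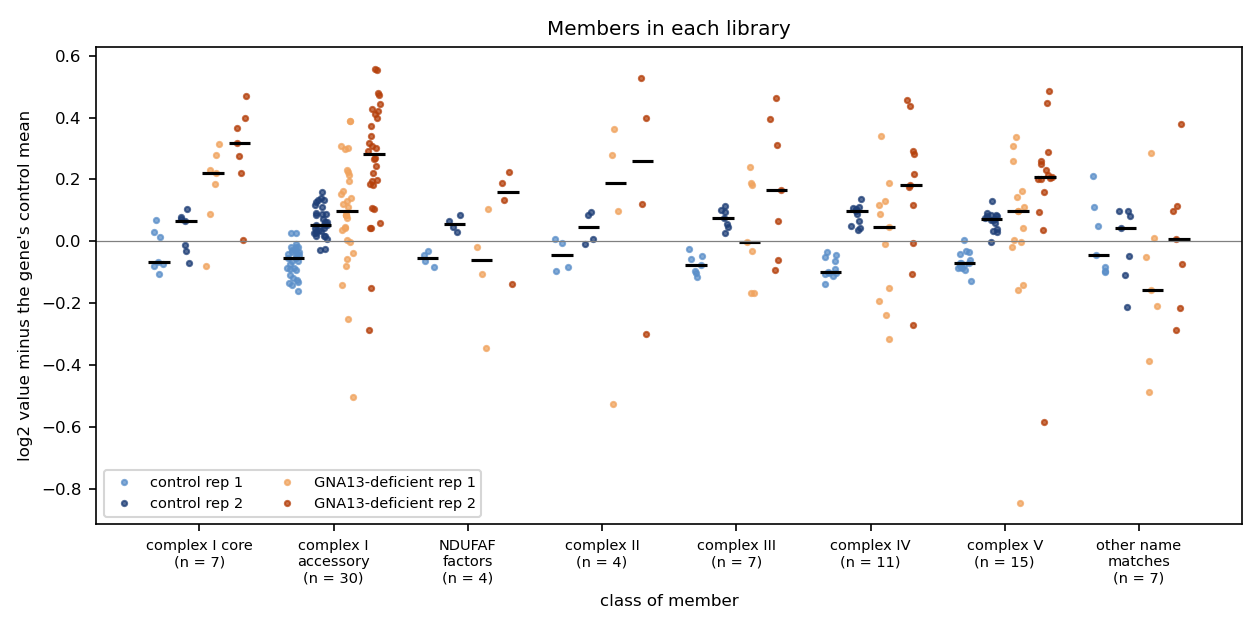
Differences from the control mean (log2) in each of the 4 libraries, for 85 of the 86 genes (COX6B2 is left out) by complex, with a point for each gene and a black bar for the median of a library. In every complex the bar of the second library lies above that of the first in each genotype, and the 4 bars of complex I core lie at -0.07, 0.07, 0.22 and 0.32.

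Complex I held most of the genes that rose. Of its 37 subunit genes 11 rose, none fell and 26 did not pass in limma, with a median of 0.205. The share that rose was 29.7%, where 21.3% of all genes at or above the median level rose. At an unadjusted p under 0.05, 19 were higher and 1 was lower, and limma's voom on recovered reads called 14 and 0. Of all 16945 genes tested, 7128 had an unadjusted p under 0.05 in either direction, and voom called 14.5% higher and 17.5% lower. Of the 7 core subunits, which carry the flavin and the iron-sulfur clusters, 4 rose, and the median was 0.29. NDUFS7, whose protein holds the last iron-sulfur cluster before ubiquinone, was at 10.00 and 10.16 in control and 10.36 and 10.55 in GNA13-deficient libraries, and rose by 0.37 (standard error 0.10, adjusted p = 0.0434, limma). NDUFS1, the largest core subunit, was at 11.97 and 11.83 against 12.21 and 12.21, and rose by 0.32 (standard error 0.07, adjusted p = 0.0243, limma). NDUFV1, which binds NADH and FMN, was at 12.38 and 12.52 against 12.68 and 12.82, and rose by 0.30 (standard error 0.08, adjusted p = 0.0494, limma). With quantile normalization its difference was 0.19 and did not pass (adjusted p = 0.106, limma). In the deposited values of each of these 3 genes the lower GNA13-deficient library was above the higher control library. This was a condition for naming NDUFS7 and NDUFS1. It held for 31.3% of all genes tested and for 3392 of the 8473 genes at or above the median level. NDUFS3 and NDUFS8 had differences of 0.18 and -0.04 that did not pass.

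The 30 accessory subunits, which surround the core and are needed for its assembly and stability, had a median difference of 0.20, with 7 that rose. Their share was 23.3%, near the 21.3% of all genes at or above the median level that rose. NDUFB11, a subunit of the membrane arm, was at 12.15 and 12.33 in control and 12.63 and 12.80 in GNA13-deficient libraries, a rise of 0.47 (standard error 0.09, adjusted p = 0.0202, limma). NDUFA6, a LYR-family subunit of the matrix arm, was at 10.62 and 10.80 against 11.02 and 11.26, a rise of 0.43 (standard error 0.11, adjusted p = 0.0417, limma). The other accessory genes that rose were NDUFAB1, the mitochondrial acyl carrier protein, with 0.42, NDUFB9 with 0.39, NDUFB6 with 0.35, NDUFB10 with 0.285 and NDUFS6 with 0.24, all named because they were called. At the other end, NDUFB5 and NDUFS4 had differences of -0.33 and -0.27 and did not pass. In NDUFS4, a subunit of the NADH-oxidising module, both GNA13-deficient libraries (9.69 and 9.65) were below both control libraries (9.85 and 10.02).

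Assembly factors of complex I whose symbols begin with NDUFAF were 4, and limma called none of them, with 0 at an unadjusted p under 0.05 and 0 called by voom. They had differences from -0.24 in NDUFAF3 to 0.15 in NDUFAF2. NDUFAF3 was at 10.52 and 10.68 in control and 10.26 and 10.46 in GNA13-deficient libraries (adjusted p = 0.140, limma). A further 4 factors of the same family stand in the table under older symbols that the name rule does not reach. Of these, C20orf7 (NDUFAF5) rose by 0.64 and C8orf38 (NDUFAF6) by 0.35, and C2orf56 (NDUFAF7) and C17orf89 (NDUFAF8) had differences of 0.01 and 0.08.

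Complex II, succinate dehydrogenase, links the tricarboxylic acid cycle to the chain, and its 4 subunits did not move together. SDHB, the iron-sulfur subunit, was at 10.79 and 10.96 in control and 11.24 and 11.40 in GNA13-deficient libraries, and rose by 0.44 (standard error 0.09, adjusted p = 0.0226, limma), or 1.36-fold. SDHC, a membrane anchor, was at 11.51 and 11.52 against 11.80 and 11.92, and rose by 0.34 (standard error 0.06, adjusted p = 0.0170, limma). SDHD, the other membrane anchor, was at 11.51 and 11.70 against 11.08 and 11.31, and fell by 0.41 (standard error 0.11, adjusted p = 0.0431, limma), to 0.751 of the control level. The catalytic flavoprotein SDHA was at 12.28 and 12.27 against 12.37 and 12.40, and its difference of 0.11 did not pass (adjusted p = 0.169, 95% interval -0.02 to 0.24, limma). The genotypes did not overlap for any of these 4 genes, as held in one direction or the other for 31.3% (higher) and 34.0% (lower) of all genes tested. At or above the median level it held for 3392 (higher) and 2881 (lower) of 8473 genes. With each library centred on its median, the difference of SDHD was -0.20 and did not pass (adjusted p = 0.268, limma; over the alternatives with all libraries, 0.00226 to 0.268). Within a library the log2 value of SDHB minus that of SDHD was -0.72 and -0.75 in control and 0.15 and 0.09 in GNA13-deficient libraries, a shift of 0.857 in a quantity that a common scaling of the library leaves unchanged.

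The promoters of SDHB and SDHD are shown because these genes of 1 complex changed in opposite directions. Each line gives the 150 bases before a RefSeq gene start (GRCh38.p14, a later build than the hg19 of the values), 5′ to 3′ on the strand of the gene. Capitals mark CCGGAAG, the ETS/GABP motif, or its reverse complement CTTCCGG, and in SDHD also GCGCANGCG, the NRF1 motif, whose matches on both strands overlap.
SDHB, chr1:17054033-17054182, minus strand: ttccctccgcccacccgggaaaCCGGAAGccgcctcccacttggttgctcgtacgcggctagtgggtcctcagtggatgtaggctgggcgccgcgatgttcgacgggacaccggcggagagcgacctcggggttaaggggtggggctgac
SDHD, chr11:112086723-112086872, plus strand: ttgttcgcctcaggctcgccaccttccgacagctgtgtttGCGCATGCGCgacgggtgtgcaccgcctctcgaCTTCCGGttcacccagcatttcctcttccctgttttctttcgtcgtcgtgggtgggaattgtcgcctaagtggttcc
Both stretches held an ETS/GABP match, and that of SDHD also held an NRF1 match. In the 50 bases after the start SDHB held a YY1 match and SDHD an estrogen-related receptor match.

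Complex III had no called gene among 7 in limma, where 3 were higher at an unadjusted p under 0.05, and a median of 0.08. UQCRC1 and UQCRQ came nearest, with adjusted p values of 0.0703 and 0.0700, and these 2 were the genes that voom called. UQCRH, the hinge protein and the most abundant transcript of the group, was at 12.74 and 12.89 in control and 12.81 and 12.98 in GNA13-deficient libraries (adjusted p = 0.541, limma). UQCRC1 and UQCRC2, the paired core proteins, had differences of 0.35 and -0.13. UCRC, the older symbol of the small subunit UQCR10 and outside the name rule, rose by 0.36 (adjusted p = 0.0423, limma). Of the other parts of this step outside the rule, cytochrome c1 (CYC1) had a difference of 0.16 that did not pass. Cytochrome c itself (CYCS), which carries electrons from complex III to complex IV and also triggers apoptosis when it leaves mitochondria, was at 13.77 and 13.88 against 13.17 and 13.38, and fell by 0.55 (adjusted p = 0.0146, limma).

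Complex IV, cytochrome c oxidase, had 1 gene that rose and 1 that fell among 12 (8.33% each). Over all genes at or above the median level these shares were 21.3% and 17.7%. COX8A, a small membrane subunit, was at 11.85 and 12.05 in control and 12.29 and 12.41 in GNA13-deficient libraries, and rose by 0.40 (standard error 0.09, adjusted p = 0.0282, limma). COX5A, a subunit on the matrix side, was at 12.30 and 12.37 against 12.02 and 12.07, and fell by 0.29 (standard error 0.06, adjusted p = 0.0185, limma). With each library centred on its median, its difference was -0.09 and did not pass. COX4I1, the most abundant transcript of this complex, was at 13.44 and 13.71 against 13.42 and 13.75, so that the replicates differed more than the genotypes (difference 0.01, 95% interval -0.37 to 0.39).

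Several subunits of complex IV have paralogs used in muscle, testis or lung, and the cells expressed the widely used forms. COX4I2, COX6A2, COX7B2 and COX8C were at 0 reads in all 4 libraries, which allows up to 3 reads in each, and COX7A1 had 1 read in 1 GNA13-deficient library. COX6B2 had 0 and 0 reads in control and 2 and 2 in GNA13-deficient libraries, and it passed the filter only through the latter, at a level where no fold is given. Of the forms in use, COX6A1, COX6B1, COX7A2 and COX7B had differences of 0.31, 0.15, -0.10 and 0.14 that did not pass. NDUFA4, now counted as a subunit of complex IV, had a difference of -0.17, and its hypoxia-inducible paralog NDUFA4L2, at log2 values of 5.92 to 6.45, had -0.35. Neither passed.

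Complex V had 3 genes that rose (20%), 1 that fell (6.67%) and 11 that did not pass, with a median of 0.15. At or above the median level, 21.3% of all genes rose and 17.7% fell, so the share that rose was near the background. ATP5G3, which encodes the membrane c subunit of the rotor, was at 13.36 and 13.55 in control and 13.79 and 13.94 in GNA13-deficient libraries, and rose by 0.41 (standard error 0.09, adjusted p = 0.0320, limma). The other genes for the same mature c subunit, ATP5G1 and ATP5G2, had differences of 0.13 and -0.06. ATP5J, coupling factor 6 of the peripheral stalk, was at 12.13 and 12.30 against 12.52 and 12.66, and rose by 0.38 (standard error 0.09, adjusted p = 0.0312, limma). ATP5I, subunit e of the membrane part, rose by 0.27. ATP5L, subunit g, which sits beside subunit e where the enzyme forms dimers, was at 12.61 and 12.75 against 11.83 and 12.09, and fell by 0.715 (standard error 0.11, adjusted p = 0.00958, limma), to 0.609 of the control level. This was the largest fall of the 86 genes. The catalytic subunit ATP5B, with the highest values of any of the 86 genes, was at 15.19 and 15.30 against 15.41 and 15.48, a difference of 0.20 that did not pass (adjusted p = 0.172, limma).

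**Figure D3:**
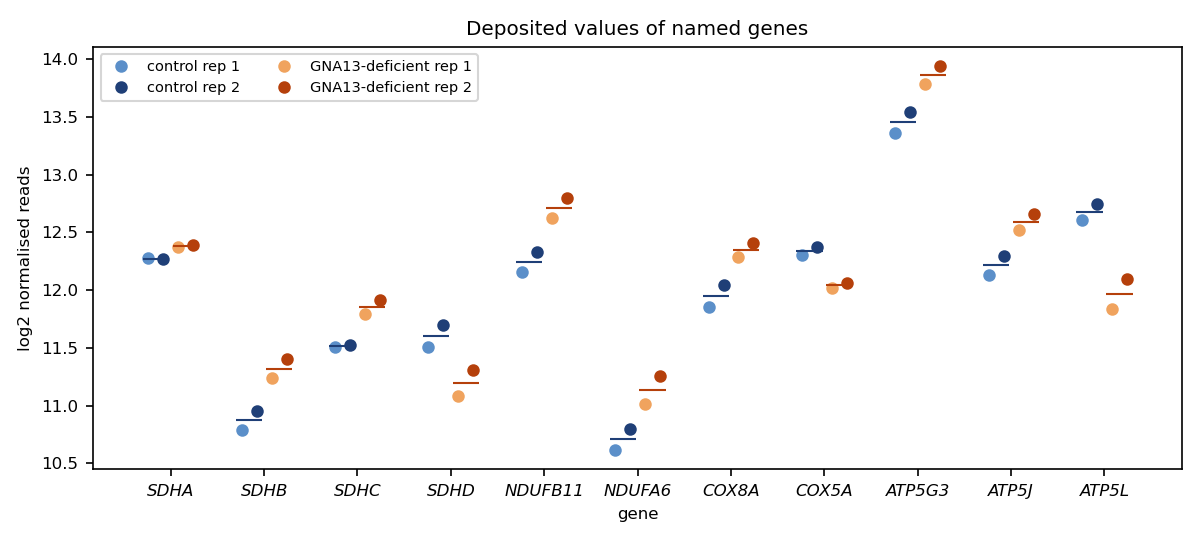
Deposited log2 values of named genes in each library, with points for libraries and bars for the mean of each genotype. SDHB lies above its control values and SDHD below in GNA13-deficient libraries, and ATP5L falls by 0.715 while ATP5J rises by 0.38.

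The promoters of ATP5J and ATP5L are shown as a pair in complex V that moved apart, by 1.09 in the difference of their log2 values within a library. ATP5G3 and ATP5L moved apart by 1.13, but no promoter was found for ATP5G3. For ATP5J the line ends at the start farther upstream of the 2 in the reference. Capitals mark the NRF1 motif, the ETS/GABP motif and AAGATGGCG, the YY1 motif.
ATP5J, chr21:25735055-25735204, minus strand: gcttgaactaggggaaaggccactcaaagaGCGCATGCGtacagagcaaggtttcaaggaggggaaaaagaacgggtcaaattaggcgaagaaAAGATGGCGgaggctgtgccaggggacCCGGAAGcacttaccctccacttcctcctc
ATP5L, chr11:118401456-118401605, plus strand: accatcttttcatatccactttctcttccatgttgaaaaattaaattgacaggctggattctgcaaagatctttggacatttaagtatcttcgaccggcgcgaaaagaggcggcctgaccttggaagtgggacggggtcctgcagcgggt
ATP5J held all 3 motifs in this stretch, while the stretch before its other start held only an ETS/GABP match. ATP5L held none of the 3 in its stretch, with an ETS/GABP match only in the 50 bases after its start.

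Promoter windows of 300 bases, from 250 before to 50 after a RefSeq start, were found for 71 of the 86 genes, some with several starts, giving 88 windows. Each motif was searched on both strands. The NRF1 motif GCGCANGCG was in 23.9% of these windows against 7.52% of all 35116, the ETS/GABP motif CCGGAAG in 26.1% against 10.3%, and the YY1 motif AAGATGGCG in 11.4% against 1.75%. The E-box CACGTG, bound by MYC among others, was in 7.95% against 7.26%, and the estrogen-related receptor motif TCAAGGTCA in 1.14% against 0.353%. Of the 16 windows of genes that rose, 31.3% held the NRF1 motif, 43.8% the ETS/GABP motif and 31.3% the YY1 motif. In the 69 windows of genes that did not pass these shares were 21.7%, 20.3% and 7.25%, and of the 3 windows of genes that fell 1, 2 and 0 held them. These shares are descriptions, and windows of the same gene overlap. The background of all windows was not limited to genes expressed in these cells, and the part of expression in these contrasts was not tested.

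Of the 3 genes that fell, 2 lie near each other in the genome. SDHD (11:111957548-111990739, plus strand, GRCh37, which is hg19) and ATP5L (11:118272061-118303993, plus strand) lie 6.31 Mb apart on chromosome 11, and COX5A lies on chromosome 15. The neighbours of SDHD, 26 other genes of at least median expression that start within 5 Mb, had a median difference of -0.72, and 100% of them were below 0. For ATP5L the 36 neighbours had a median of -0.71, with 88.9% below 0. ATP5L thus differed about as much as its neighbours, and SDHD differed less. On chromosome 11 from 100 Mb onward, 70 of 87 such genes fell and 2 rose, with a median of -0.75. Before 100 Mb 134 of 391 fell and 38 rose (median -0.16), and on the other chromosomes the median over 7791 genes was 0.04. Taken singly, these other chromosomes had medians from -0.178 on chromosome 7 to 0.237 on chromosome X. The window and the boundary were chosen after these values were seen, and whether the DNA copy number of this region differs between the cultures was not tested.

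**Figure D4:**
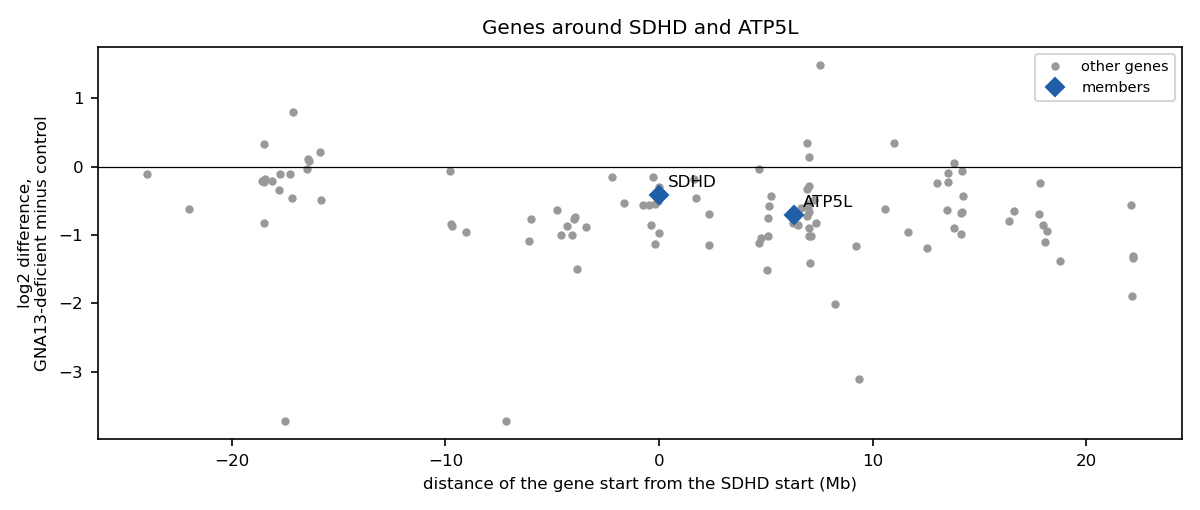
Log2 difference of genes of at least median expression against their distance (Mb) from the start of SDHD on chromosome 11, with SDHD and ATP5L marked. Nearly all genes around these 2 lie below 0, with medians of -0.72 and -0.71 within 5 Mb.

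The remaining 5 respiratory genes of chromosome 11 start before 100 Mb. Among them COX8A and NDUFV1 rose by 0.40 and 0.30 although the medians of their neighbours were -0.13 and -0.14. NDUFS3, NDUFS8 and NDUFC2 did not pass. On chromosome 1, the neighbours of SDHC had a median of 0.29, and SDHC rose. The neighbours of NDUFA4 had -0.53, those of COX5A -0.17 and those of NDUFB11 0.28. Across 85 genes with neighbours, the difference of a gene and the median of its neighbours had r = 0.47 and rho = 0.36, and without SDHD and ATP5L r = 0.25 and rho = 0.31 (n = 83). These values are descriptions, since genes near each other share neighbours. After subtraction of the neighbours' median, the 85 genes still had a median of 0.14. The difference showed little relation to transcript length (r = -0.04, n = 85) or to mean level (r = -0.11, n = 86).

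**Figure D5:**
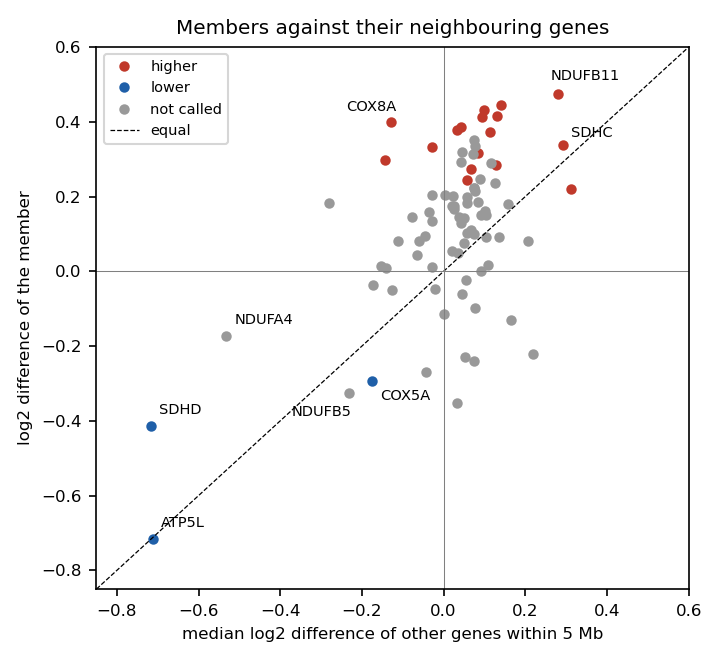
Log2 difference of each respiratory gene (vertical axis) against the median of its neighbours within 5 Mb (horizontal axis). SDHD and ATP5L lie at the far left, at neighbour medians of -0.72 and -0.71, and most other genes lie above 0 at neighbour medians around 0.

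Among 7 genes that match by name but are not counted as subunits, NDUFA4L2 included, 1 rose (14.3%, against 13.1% of all genes tested). COX4NB, the older symbol of EMC8 of the endoplasmic reticulum membrane complex, lies next to COX4I1 and rose by 0.33 (adjusted p = 0.0253, limma). COX7A2L, which joins complexes III and IV into supercomplexes, had -0.05, UQCRHL -0.02, ATP5SL (DMAC2) 0.05, ATP5S (DMAC2L) -0.23 and the pseudogene ATP5EP2 -0.22, and none passed. UQCRHL and ATP5EP2 are near copies of UQCRH and ATP5E, so the reads of such pairs may have been split by the authors' counting. For 26 of the 86 genes, SDHD and ATP5L among them, exons overlap those of another annotated gene, and their values are uncertain to that extent.

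Of 41 assembly factors of complexes I to V, 8 rose (19.5%), 4 fell (9.76%) and 29 did not pass, with a median of 0.08. Of all genes at or above the median level 21.3% rose and 17.7% fell. ATPAF1 and ATPAF2, chaperones for the β and α subunits of ATP synthase, moved apart. ATPAF1 was at 10.28 and 10.28 in control and 11.004 and 11.156 in GNA13-deficient libraries, and rose by 0.80 (adjusted p = 0.00272, limma). ATPAF2 was at 9.19 and 9.30 against 8.39 and 8.33, and fell by 0.88 (adjusted p = 0.00357, limma). C16orf61 (CMC2), a complex IV factor, rose by 0.63, and TMEM126B, which acts on the membrane arm of complex I, fell by 1.10 (adjusted p = 0.00189, limma). TMEM126B lies on chromosome 11 before 100 Mb, where 134 of 391 genes of at least median expression fell and 38 rose (median -0.16). The part of its position was not tested.

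Enzymes of the tricarboxylic acid cycle, which supply NADH and succinate, had 7 of 13 genes that rose and none that fell in limma, with a median of 0.26. Of all genes at or above the median level 21.3% rose and 17.7% fell. At an unadjusted p under 0.05, 8 of the 13 were higher and 0 lower, and voom called the same numbers. The background was 7128 of all 16945 genes at that p in either direction, and 14.5% higher and 17.5% lower by voom. IDH3B, a subunit of the NAD-dependent isocitrate dehydrogenase, was at 11.45 and 11.54 against 11.96 and 12.02, and rose by 0.50 (adjusted p = 0.00531, limma). FH, fumarate hydratase, which takes the product of complex II, was at 12.12 and 12.11 against 12.56 and 12.62, and rose by 0.48 (adjusted p = 0.00431, limma). Of 15 tested regulators of mitochondrial gene expression, 1 rose and 1 fell (6.67% each), with a median of 0.0055. Both shares were below the 21.3% and 17.7% of all genes at or above the median level. NRF1, the factor that binds the motif named above, was at 9.58 and 9.56 against 9.86 and 9.89, and rose by 0.31 (adjusted p = 0.0225, limma). ESRRA, an estrogen-related receptor, was at 10.78 and 10.77 against 10.43 and 10.51, and fell by 0.31 (adjusted p = 0.0178, limma). ESRRA also lies on chromosome 11 before 100 Mb, where the median was -0.16, and the part of its position was not tested. PPARGC1A, the coactivator of both, was not above 0 in at least 2 libraries and was not tested.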

How the data were processed

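RNA was sequenced from 4 NUDUL1 cultures (2 control, 2 GNA13-deficient) after poly(A) selection. Reads were aligned by the authors with STAR against hg19, and the submitters' processing notes name HTSeq. The annotation and the normalization are not given in the sources used here. The authors deposited normalized log2 values, used as they stand, with linear totals of mapped reads. Low values step in whole reads (all values up to 400 reads came out whole), which gave read numbers, the floor of 3 reads and the voom alternative. The floor covers counting error only.

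Differences were fitted with limma 3.58.1 in R 4.3.3 (lmFit, eBayes with trend, two-sided) on 16945 genes above 0 in at least 2 libraries, with genotype as the only term, 2 residual degrees of freedom and Benjamini-Hochberg adjustment. The fit was tested on simulated data with far fewer changed genes than were called here. Counts were drawn independently, with a dispersion of 0.003 and no effect shared by same-numbered libraries. The numbers that follow describe that setting, and the rate of false calls in the deposited values was not tested. It called 19 of 100 genes with a difference of 0.5 and 79 of 100 with a difference of 1. Of 16309 unchanged genes it called 0. A difference that did not pass is therefore not shown to be absent. Genes described were the 4 SDH genes and, by class, the highest mean and the 2 largest called rises and falls without overlap between genotypes. Paralog pairs, matches by name only and the 2 largest called changes of each outside list were also described. Others are named because they were called or after their values were seen. The genes and lists were chosen with earlier results of these data known, and the analysis by position was added after the values were seen. Positions come from GENCODE v44 on GRCh37, promoters from RefSeq on GRCh38.p14. Alternatives were other filters, pseudocounts of 1 and 10, quantile normalization, median centring, a replicate block, other variance models, voom and leaving out each library. Values of 2 genes that the lists include are not reported here.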

Additional observations from a re-analysis of the deposited data

How the results depend on the processing

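Of the 86 genes, 18 rose and 3 fell in the values as deposited. The counts were 3 and 0 with no filter, 1 and 0 with no variance trend, 25 and 5 with a filter at the median level (fewer genes tested) and 46 and 1 with median centring, and 0 to 0 for both when any 1 library was left out, where the lone sample of a genotype is assumed to vary like the others. Genes that rose made 85.7% of their calls as deposited and 97.9% with median centring. Of all genes tested, 2218 rose and 2819 fell as deposited, 815 and 1184 with no filter, 986 and 1732 with no variance trend, 4311 and 1924 with median centring, and 0 and 0 with a library left out, where 5257 to 5600 had an unadjusted p under 0.05. Higher calls were 54.6% of all calls with the filter at the median level. The same replicate numbers in both genotypes are not stated to pair the samples, and the deviations of same-numbered libraries had r = 0.45 over 8473 genes. With the replicate number as a block 42 of the 86 rose and 8 fell, and of all genes 3053 rose and 3563 fell. The cause of these differences was not tested.

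With median centring the medians were 0.36 over the 86 genes, 0.50 for complex I core, 0.41 for its accessory subunits, 0.27 for NDUFAF factors, 0.43 for complex II, 0.29 for complex III, 0.35 for complex IV and 0.36 for complex V, against 0.18 for all genes. With quantile normalization they were 0.19 for complex I core, 0.16 for complex II, -0.025 for complex III, 0.062 for complex IV and 0.055 for complex V, against 0.07 for all genes. Relative to neighbouring genes, complex III had -0.093. With each library left out the medians ranged from 0.09 to 0.22 over the 86 genes, 0.22 to 0.32 for complex I core, 0.10 to 0.28 for accessory subunits, -0.061 to 0.16 for NDUFAF factors, 0.19 to 0.26 for complex II, -0.0035 to 0.16 for complex III, 0.07 to 0.20 for complex IV and 0.09 to 0.22 for complex V.

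Of the 33 genes described by the rule, those that changed sign were not called in any direction as deposited. With quantile normalization they were UQCRH (-0.044), COX4I1 (-0.15), NDUFA4L2 (0.0505), UQCRHL (0.084) and ATP5EP2 (0.017), and with median centring NDUFA4 (0.036), COX7A2 (0.11), COX7A2L (0.16), UQCRHL (0.19) and ATP5G2 (0.15). With a library left out the ranges were -0.0035 to 0.16 for UQCRH, -0.15 to 0.18 for COX4I1, -0.20 to 0.003 for COX7A2, -0.21 to 0.115 for COX7A2L, -0.009 to 0.29 for COX7B, -0.13 to 0.0875 for UQCRHL, -0.0005 to 0.26 for ATP5G1, -0.16 to 0.0365 for ATP5G2 and -0.0455 to 0.15 for ATP5SL. Pseudocounts of 1 and 10, a robust variance prior and voom changed no call among the 33. COX6B2, at 0 to 2 reads, passed the threshold with no filter, with no variance trend and with median centring. Depth limits COX6B2 most. The other genes had 59 reads or more in every library, and the least covered had wider errors (standard errors of 0.21 for NDUFA4L2 and 0.18 for ATP5EP2).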
